A study of Mus musculus with 12 samples.

Results

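The guanylate-binding proteins (GBPs) and the immunity-related GTPases (IRGs) are 2 families of interferon-induced GTP-binding proteins, and the genes described here were chosen by name: Gbp2, Gbp3, Gbp5, Gbp7, Gbp9, Igtp, Irgm1, Irgm2, Ifi47 and Iigp1. The choice was made with earlier results of these data known. Of these 10 genes, 9 had a row among the 13935 rows of the expression table, and Iigp1 is not analysed here. RNA was sequenced from neutrophils sorted from mouse femur bone marrow by CD45, CD11b and Ly6G and then cultured for 8 h, in 4 groups of 3 libraries. The groups were LysMcre Socs3fl/fl cells with 10 ng/ml granulocyte colony-stimulating factor (G-CSF), LysMcre Socs3fl/fl cells left untreated, Socs3fl/fl cells with 10 ng/ml G-CSF, and Socs3fl/fl cells left untreated. All 4 groups carried the floxed Socs3 alleles, and the LysMcre groups carried in addition a Cre recombinase driven from the lysozyme 2 locus, which is active in myeloid cells rather than in neutrophils alone. Socs3 encodes a feedback inhibitor of cytokine receptors that signal through STAT3, among them the G-CSF receptor. The labels leave unstated whether the libraries within a group stem from different mice. The p-values therefore cover only the variation among these libraries, and that variation may be technical.

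GBPs and IRGs guard cells against microbes that live inside membrane-bound vacuoles or in the cytosol. Interferon-gamma, in part through IRF1, is the best known inducer of both families, and type I interferons also induce many of their members. Mouse GBPs gather on pathogen vacuoles and bacterial surfaces and promote activation of inflammasome caspases. Among the IRGs, Irgm1, Irgm2 and Igtp (also called Irgm3) are regulators that sit on the cell's own membranes and hold the effector IRGs, such as Ifi47 (Irgd) and Iigp1 (Irga6), in the inactive state until a vacuole is met.

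Values are normalized counts, the read count of a gene divided by 1 size factor per library, and each library held 19495754 to 26472118 reads. The 8 neutrophil markers, led by S100a9 and S100a8, summed to 1658970 to 1819280 normalized counts per LysMcre-labelled library with G-CSF, against 1106670 to 1214790 untreated. In floxed libraries they summed to 1444900 to 1681420 with G-CSF, against 1168730 to 1232790 untreated. Of these 8 markers 5 rose and 2 fell in LysMcre-labelled and 5 rose and 3 fell in floxed libraries. Monocyte and macrophage markers (8 of 9 in the table) summed to 12202 to 14739 in LysMcre-labelled libraries given G-CSF, against 19371 to 21379 in the untreated ones, and to 15030 to 17969 in the floxed libraries with G-CSF, against 20200.0 to 20677 in the untreated ones. Those lower sums came mainly from Ly6c2 (means of 2254 with G-CSF against 10061 untreated in LysMcre-labelled, and 4871 against 11062 in floxed libraries), while of the 8 markers 2 rose and 2 fell in LysMcre-labelled and 3 rose and 2 fell in floxed libraries. T and NK cell markers (5 of 8) summed to 135 to 163 with G-CSF, against 413 to 442 untreated, in LysMcre-labelled libraries, and to 168 to 201 with G-CSF, against 344 to 374 untreated, in floxed libraries. Of these 5 markers 1 passed in either genotype, Cd3d, with means of 36.7 with G-CSF against 295.7 untreated in LysMcre-labelled and 51.4 against 242.8 in floxed libraries. B cell markers (6 of 6) summed to 2943 to 5327 and dendritic cell markers (4 of 6) to 488 to 699 over all libraries. The part of other cell types in the differences below was not tested. Socs3 itself was not lower in the LysMcre-labelled libraries, at 37335 ± 1219 normalized counts against 19504 ± 1635 in the floxed libraries with G-CSF, and 292 ± 34.5 against 225 ± 23.1 untreated (SD, n = 3 each). The row does not show which exons its reads came from, so it does not check the deletion, and the label is used here as given. Lyz2, the gene that carries the Cre, was at 569 ± 64.8 in LysMcre-labelled against 46227 ± 2464 in floxed libraries with G-CSF, and at 6053 ± 493 against 222593 ± 3235 untreated.

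The 9 measured genes lie in 4 neighbourhoods of the mouse genome (GRCm38, GENCODE M21). Gbp5 (chr3:142493978-142522344), Gbp7 (chr3:142530342-142550149), Gbp3 (chr3:142560026-142573209) and Gbp2 (chr3:142620602-142638008) stand side by side on the plus strand of chromosome 3, while Gbp9 (chr5:105077630-105139539, minus strand) belongs to a separate GBP cluster. On chromosome 11, Irgm1 (chr11:48861968-48871683, minus strand) lies near Ifi47 (chr11:49076587-49096974, plus strand), and Igtp (chr11:58199556-58207591) and Irgm2 (chr11:58199618-58222782) share a locus on the plus strand. The gene models of Igtp and Irgm2 overlap, that of Gbp9 overlaps Gbp4 and Gbp8, and that of Ifi47 overlaps Olfr56 on the same strand and Gm12188 on the other. That of Gbp7 overlaps the processed pseudogene Gm43802 on the same strand, and that of Gbp2 overlaps the microRNA gene Mir6381 on the other. The sources used here do not give how reads in such overlaps were assigned, and the values of all these genes are uncertain to that extent.

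Promoter sequences are shown because 8 of the 9 measured genes moved in the same direction with G-CSF, and the sequences show which interferon-related letters stand before their starts. RefSeq (GRCm38.p6) gave a window of 250 bases before the transcription start for 8 of them, all but Gbp9. Both strands were searched for TTCNNNGAA, the core of the gamma-activated site (GAS) known from interferon-gamma target genes, and GAAANNGAAA, the core of the interferon-stimulated response element (ISRE) that IRF9 and other IRFs are known to bind. A GAS match stood in the windows of Gbp5, Gbp7, Igtp and Irgm2, 4 of 8 genes, where 8.13% of 27025 mouse genes had one in a window of this length (7.02% of 32851 windows). An ISRE match stood in 7 of 8, all but Ifi47, where 3.46% of genes had one (2.98% of windows), and the 4 genes with a GAS match had both, where 0.459% of genes did (0.332% of windows held both). The genes were chosen as members of interferon-induced families, so setting them beside all genes is no independent support. Alike windows, such as those of Igtp and Irgm2, are not separate counts. Whether the matches bear on the G-CSF response was not tested. The windows of Gbp7 (chr3:142530086-142530335), Igtp (chr11:58199306-58199555), Irgm2 (chr11:58214727-58214976) and Ifi47 (chr11:49076337-49076586), all on the plus strand, follow 5′ to 3′ with every match in capitals.
Gbp7: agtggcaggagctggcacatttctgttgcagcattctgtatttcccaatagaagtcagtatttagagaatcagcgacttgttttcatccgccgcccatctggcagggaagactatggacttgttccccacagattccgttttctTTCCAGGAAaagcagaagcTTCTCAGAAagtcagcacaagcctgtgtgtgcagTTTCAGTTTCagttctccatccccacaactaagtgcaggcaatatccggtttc
Igtp: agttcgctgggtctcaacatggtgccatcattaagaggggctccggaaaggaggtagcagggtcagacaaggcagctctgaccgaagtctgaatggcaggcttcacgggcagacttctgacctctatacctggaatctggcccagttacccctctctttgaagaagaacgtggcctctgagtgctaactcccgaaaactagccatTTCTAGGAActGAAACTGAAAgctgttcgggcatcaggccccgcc
Irgm2: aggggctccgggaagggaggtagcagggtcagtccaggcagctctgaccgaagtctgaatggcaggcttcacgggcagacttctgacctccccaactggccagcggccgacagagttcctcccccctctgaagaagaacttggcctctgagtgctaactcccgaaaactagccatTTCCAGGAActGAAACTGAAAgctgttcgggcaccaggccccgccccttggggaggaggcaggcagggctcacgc
Ifi47: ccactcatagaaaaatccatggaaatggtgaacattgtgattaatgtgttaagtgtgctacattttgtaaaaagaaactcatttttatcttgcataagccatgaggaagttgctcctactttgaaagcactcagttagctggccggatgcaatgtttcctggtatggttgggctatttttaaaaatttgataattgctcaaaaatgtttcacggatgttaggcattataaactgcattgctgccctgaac
In Gbp7 the GAS matches began 106 and 87 bases before the start and the ISRE match began 53 bases before it. In Igtp and Irgm2 the GAS and ISRE matches stand close together, beginning 45 and 34 bases before the start of Igtp and 75 and 64 bases before that of Irgm2. This block of 21 bases was identical at 20 positions between the 2 genes, and the windows shared a run of 55 bases.

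Ifi47 held neither motif, which says only that these letters are not in this window. For Gbp5, Gbp3, Gbp2 and Irgm1, part or all of the RefSeq window lies in an exon of a longer GENCODE transcript (34, 18, 61 and 250 of the 250 bases). Only 30 bases around their ISRE matches are therefore shown, from chr3:142496759-142496788, chr3:142559992-142560021 and chr3:142620594-142620623 (plus strand) and chr11:48871428-48871457 (minus strand), again with the matches in capitals.
Gbp5: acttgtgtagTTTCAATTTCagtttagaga
Gbp3: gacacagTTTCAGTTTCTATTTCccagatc
Gbp2: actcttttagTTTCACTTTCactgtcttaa
Irgm1: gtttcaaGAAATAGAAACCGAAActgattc
The GAS matches of Gbp5 began 245 and 52 bases before its start, outside the bases shown. The capitals of Gbp3 and of Irgm1 each hold 2 ISRE matches that overlap each other. A second RefSeq start of Gbp3 had no match of either motif. A match is a description of the letters and no evidence of binding in these cells.

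G-CSF changed all 9 measured genes in both genotypes: 8 rose and Gbp9 fell. Over all 13915 genes tested, 62.6% passed in the LysMcre-labelled libraries (31.1% higher, 31.6% lower) and 48.8% in the floxed libraries (24.1% higher, 24.6% lower). The libraries with G-CSF stood wholly above the untreated ones for 33.6% of genes in LysMcre-labelled and 27.5% in floxed libraries, and wholly below for 34% and 28.6%. Of the 9 genes, 8 stood wholly above in LysMcre-labelled and 7 in floxed libraries, and Gbp9 wholly below in LysMcre-labelled libraries. The median log2 difference of the 9 genes was 1.75 in LysMcre-labelled and 1.65 in floxed libraries, beside a median of 0 over all genes in both. The 9 genes were chosen with earlier results of these data known, so setting them beside all genes is no independent support. In bulk libraries such as these, fewer cells of a type and less RNA per cell cannot be told apart. Differences are log2(normalized count + 1), G-CSF minus untreated, from limma, with p-values adjusted by Benjamini-Hochberg over all genes tested and a threshold of 0.05. The 2 genotype comparisons and the 2 G-CSF comparisons share libraries, so each is given with its own values.

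Of the GBPs on chromosome 3, Gbp2 had the largest fitted difference. Gbp2, which in mice is recruited to vacuoles that hold Toxoplasma, had 2271, 1847 and 1694 normalized counts in LysMcre-labelled libraries given G-CSF, against 230.3, 223 and 223 in the untreated ones. In floxed libraries it had 2168, 1896 and 1954 with G-CSF, against 196, 198 and 365 untreated. Every library with G-CSF stood far above every untreated library, and the untreated floxed replicate 3 stood above the other untreated libraries. The difference was 3.09 (SE 0.18, adjusted p = 5.72e-10), 8.5-fold, in LysMcre-labelled and 3.04 (SE 0.18, adjusted p = 1.62e-09), 8.24-fold, in floxed libraries.

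Gbp7, linked in mouse macrophages to assembly of the phagocyte oxidase, had 1959, 1827 and 1821 normalized counts with G-CSF in LysMcre-labelled libraries, against 466, 385 and 422 untreated. In the floxed libraries Gbp7 had 1894, 1650 and 1872 with G-CSF, against 440, 398 and 714 untreated. The groups did not overlap, although the untreated floxed replicate 3 again stood highest among untreated libraries. Its log2 difference was 2.14 (adjusted p = 8.17e-09) in LysMcre-labelled and 1.85 (adjusted p = 9.04e-08) in floxed libraries.

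Gbp5, a promoter of inflammasome activation, was the least abundant of the 9 genes per length, with 202, 163 and 160 normalized counts with G-CSF against 46.3, 45.6 and 36.2 untreated in LysMcre-labelled libraries. Floxed libraries held 171, 117 and 146 Gbp5 normalized counts with G-CSF, against 52.2, 35.1 and 49.9 untreated. All 6 G-CSF libraries were above all 6 untreated ones, and the differences were 2.01 (adjusted p = 1.56e-07) in LysMcre-labelled and 1.65 (adjusted p = 2.67e-06) in floxed libraries. Gbp3, another GBP of the cluster, had 389, 301 and 289 normalized counts with G-CSF against 125, 86.8 and 79.8 untreated in LysMcre-labelled libraries. In floxed libraries Gbp3 had 279, 239 and 294 with G-CSF, against 63.9, 95.1 and 81.9 untreated. No library with G-CSF fell within the untreated range, and the differences were 1.75 in LysMcre-labelled (adjusted p = 5.33e-07) and 1.75 in floxed libraries (adjusted p = 9.41e-07).

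**Figure D1:**
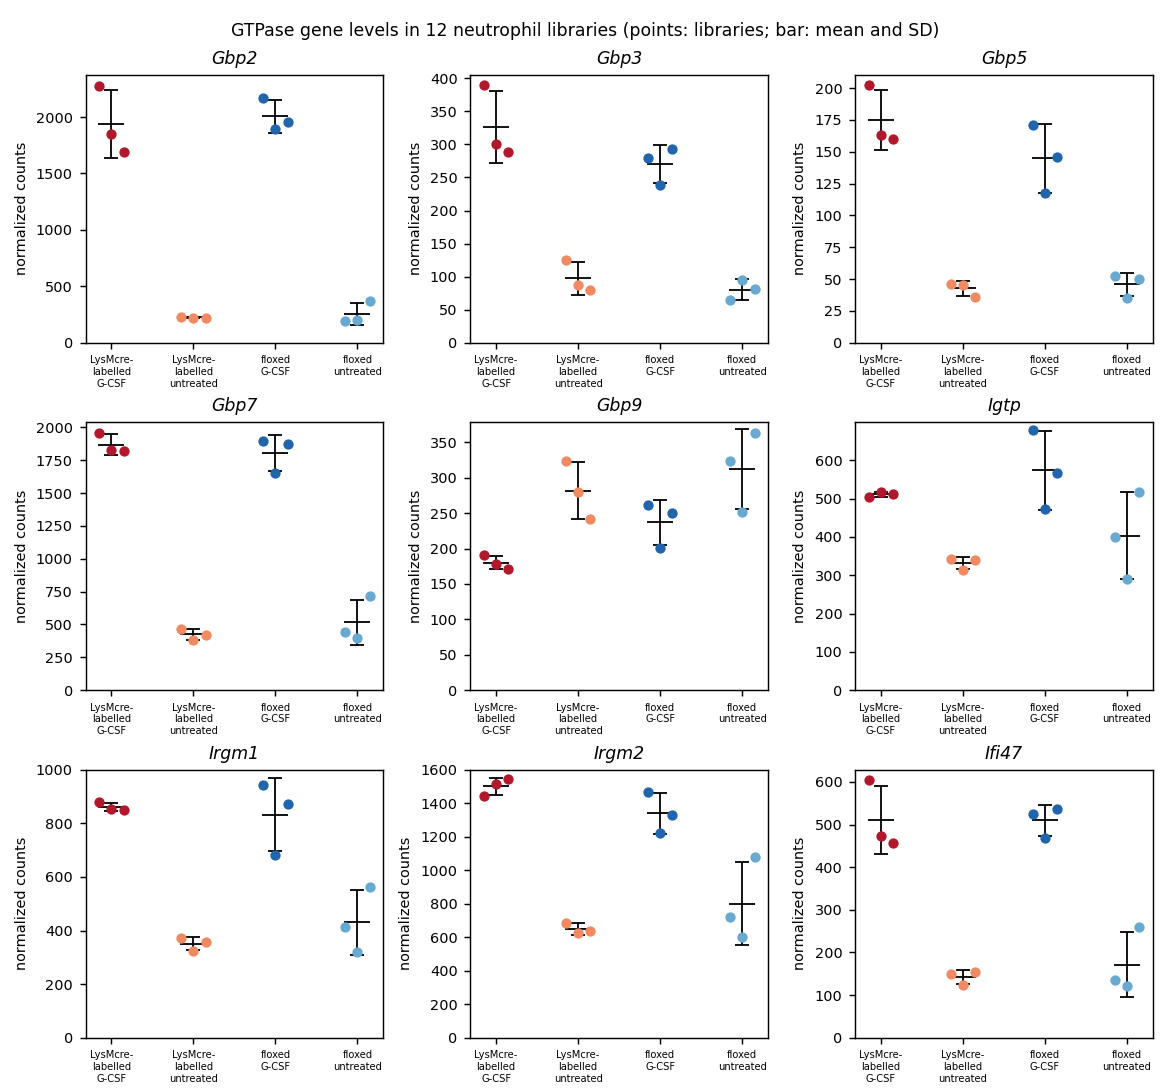
Normalized counts of the 9 GTPase genes in each of the 12 libraries (y axis, linear and starting at 0), by group. Points are libraries and bars the mean and SD of 3 libraries. Gbp2 sits between 1694 and 2271 with G-CSF and between 196 and 365 untreated, while Gbp9 is lower with G-CSF in both genotypes.

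Gbp9 went the other way. It had 191, 178 and 172 normalized counts with G-CSF in LysMcre-labelled libraries, against 323, 280.2 and 242 untreated, with no overlap, a difference of -0.63 (SE 0.14, adjusted p = 0.00112). In floxed libraries it had 261, 201 and 249.5 with G-CSF, against 323, 251 and 362 untreated. Those groups overlapped, since replicate 1 with G-CSF exceeded replicate 2 without it, and the difference was -0.39 (SE 0.14, adjusted p = 0.0349). That call was lost without floxed G-CSF replicate 2 (-0.27), floxed untreated replicate 1 (-0.35) or floxed untreated replicate 3 (-0.27), and the adjusted p lay between 0.00544 and 0.165 over the alternatives tried.

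Among the IRGs the effector Ifi47 had the largest fitted rise. Ifi47 had 603, 473 and 456 normalized counts with G-CSF in LysMcre-labelled libraries, against 149, 123 and 153 untreated. In floxed libraries it had 525, 468 and 537 with G-CSF, against 134, 121 and 259.7 untreated. Ifi47 libraries with G-CSF stood above all untreated ones, and the log2 difference was 1.84 (SE 0.21, adjusted p = 1.95e-06) in LysMcre-labelled and 1.65 (SE 0.21, adjusted p = 1.03e-05) in floxed libraries.

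The regulators Irgm1 and Irgm2 followed. Irgm1, which is also required in mice for normal clearance of mycobacteria and for haematopoietic stem cell maintenance, had 879.5, 852 and 851 normalized counts with G-CSF against 371, 323 and 357 untreated in LysMcre-labelled libraries. In floxed libraries Irgm1 had 944, 681 and 871 with G-CSF, against 411, 319.5 and 561 untreated. The groups did not overlap in either genotype, and the differences were 1.30 (adjusted p = 3.07e-06) in LysMcre-labelled and 0.97 (adjusted p = 9.48e-05) in floxed libraries. Irgm2 had 1446, 1512 and 1544 with G-CSF against 688, 622 and 638 untreated in LysMcre-labelled libraries, a difference of 1.21 (adjusted p = 3.28e-06). In floxed libraries it had 1467, 1225 and 1328.5 with G-CSF against 722, 601 and 1080.4 untreated, a difference of 0.78 (adjusted p = 0.000389). The untreated floxed replicate 3 stood well above the other untreated libraries, but the groups did not overlap.

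Igtp had the smallest fitted rise. It had 504, 518 and 512 normalized counts with G-CSF in LysMcre-labelled libraries, against 343, 315 and 339 untreated, without overlap, a difference of 0.62 (SE 0.16, adjusted p = 0.0034). With every library scaled to the same total that difference was 0.36 and missed the threshold (adjusted p = 0.056, within 2.44e-05 to 0.056 over the alternatives). In floxed libraries Igtp had 680.3, 474 and 568 with G-CSF, against 399.7, 291 and 518 untreated. The groups overlapped there, with untreated replicate 3 above G-CSF replicate 2, and the difference was 0.53 (SE 0.16, adjusted p = 0.0126). Without floxed G-CSF replicate 1 it was 0.40 and without floxed untreated replicate 2 it was 0.32, neither past the threshold (adjusted p = 0.0635 and 0.0677, within 0.000619 to 0.0677 over the alternatives).

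**Figure D2:**
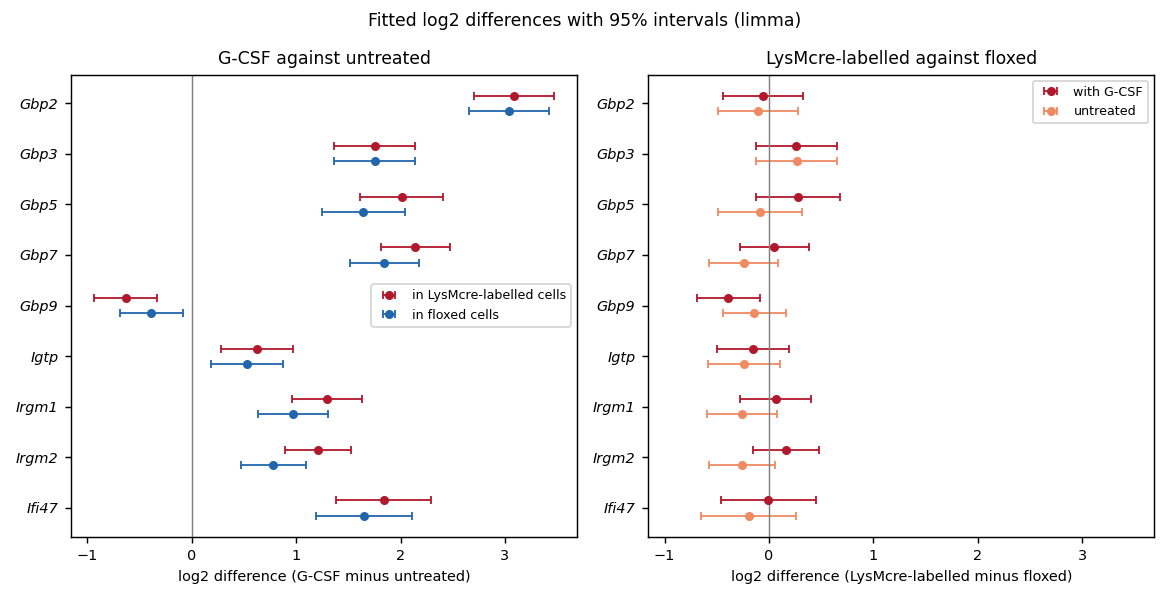
Fitted log2 differences of the 9 genes with 95% intervals from limma (x axis). The left panel gives G-CSF minus untreated in LysMcre-labelled and in floxed cells, and the right panel LysMcre-labelled minus floxed with G-CSF and untreated. Gbp2 is farthest right in the left panel (3.09 and 3.04), Gbp9 is left of 0, and the points of the right panel lie between -0.39 and 0.28.

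Per kilobase of exon, which makes levels of different genes only roughly comparable, the order of the 9 genes differed between treated and untreated groups. The length is that of all annotated exons of a gene merged, from 2022 bases for Igtp to 6637 for Gbp5. It can exceed the length of the transcripts present, which were not determined, so order and shares between genes are approximate. With G-CSF, Gbp2 led at 770.0 ± 119 normalized counts per kilobase in LysMcre-labelled and 797 ± 56.8 in floxed libraries (SD, n = 3 each), apart from the next gene, Irgm2, at 407 ± 13.6 and 363 ± 32.9. In untreated LysMcre-labelled libraries Irgm2 led at 176 ± 9.27, its libraries overlapping those of Igtp at 164 ± 7.56, and Gbp2 followed at 89.5 ± 1.74. In untreated floxed libraries the order of the first 7 genes, led by Irgm2 (217 ± 67.5), Igtp (199 ± 56) and Gbp2 (101 ± 38.6), held no neighbours whose libraries stood apart until Gbp9 (60.3 ± 10.9) and Gbp3 (24.6 ± 4.79). Gbp5 was last in every group, at 26.4 ± 3.56 per kilobase with G-CSF against 6.43 ± 0.846 untreated in LysMcre-labelled libraries, and 21.8 ± 4.06 against 6.89 ± 1.4 in floxed libraries. With G-CSF, neighbours in the order stood apart throughout in LysMcre-labelled libraries, while Irgm2, Gbp7 and Igtp overlapped their neighbours in floxed libraries.

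The summed level of the 9 genes was 2278 ± 173 normalized counts per kilobase with G-CSF against 714 ± 44.8 untreated in LysMcre-labelled libraries, and 2266 ± 210 against 844 ± 251 in floxed libraries. Gbp2 made up 33.7% ± 2.59 of that sum with G-CSF against 12.6% ± 0.559 untreated in LysMcre-labelled libraries, and 35.2% ± 1.37 against 11.8% ± 1.41 in floxed libraries. Igtp took the smaller share with G-CSF, 11.2% ± 0.938 against 23% ± 0.78 in LysMcre-labelled and 12.5% ± 1.11 against 23.7% ± 1.91 in floxed libraries. The shares did not overlap between treated and untreated libraries for either gene. They are given as a description without a test.

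**Figure D3:**
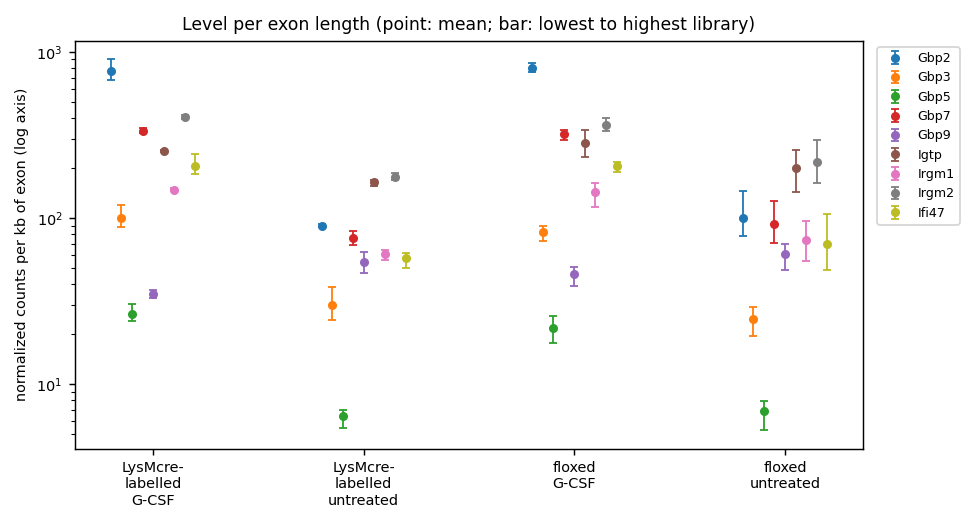
Level of each gene as normalized counts per kilobase of exon (y axis, logarithmic) in the 4 groups. Points are means and bars run from the lowest to the highest of 3 libraries. Gbp2 leads with G-CSF (770.0 and 797 per kilobase), Irgm2 and Igtp lead untreated, and Gbp5 is lowest in every group.

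The second question of the design is whether the LysMcre genotype altered these genes. With G-CSF, 1 of the 9 passed the test, Gbp9, where 36% of all genes passed (17.1% higher, 18.9% lower). Gbp9 had 191, 178 and 172 normalized counts in LysMcre-labelled libraries with G-CSF, against 261, 201 and 249.5 in floxed libraries with G-CSF, all 3 below all 3, as in 23.1% of all genes (22.4% stood wholly above). The log2 difference, LysMcre minus floxed, was -0.39 (SE 0.14, adjusted p = 0.0449), 1.31-fold lower. The call was lost with quantile normalization (adjusted p = 0.05), in edgeR's quasi-likelihood test (adjusted p = 0.0604), and without any 1 of the 3 LysMcre-labelled G-CSF libraries, floxed G-CSF replicate 1 or floxed G-CSF replicate 3 (-0.43 to -0.31); it was kept without floxed G-CSF replicate 2, and the adjusted p lay between 0.0128 and 0.151 over all alternatives.

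The other 8 genes differed by -0.15 to 0.28 between the genotypes with G-CSF, and the LysMcre-labelled and floxed libraries overlapped for each. The 95% interval was -0.44 to 0.33 for Gbp2, -0.28 to 0.38 for Gbp7, -0.15 to 0.48 for Irgm2 and -0.46 to 0.45 for Ifi47. The median of the 9 genes was 0.05, beside -0.01 over all genes. With libraries scaled to the same total, the median of all genes was -0.13 and that of the 9 genes -0.07, and 28.2% of calls over all genes were higher, against 47.5% with the deposited scaling.

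Untreated, none of the 9 genes passed between the genotypes in limma, where 0.115% of all genes, 16 of 13915, passed (0.0647% higher, 0.0503% lower; 465 had an unadjusted p under 0.05, while edgeR called 13 genes and DESeq2 28). None of the 9 had an unadjusted p under 0.05, the lowest being 0.0992 for Irgm2. The log2 differences were -0.26 to 0.26, with Gbp3 the only gene above 0, and the groups overlapped for all 9. Over all genes, 3.93% of LysMcre-labelled groups stood wholly above and 5.4% wholly below the floxed ones. For Irgm2 the interval was -0.58 to 0.06 and for Gbp2 -0.49 to 0.28. The median of the 9 genes was -0.19 with all libraries, -0.01 without floxed untreated replicate 3 and -0.40 without floxed untreated replicate 2.

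The response to G-CSF itself did not pass a test of difference between the genotypes for any of the 9 genes in limma, where 22.4% of all genes passed (3112 genes, 4503 at an unadjusted p under 0.05, 3217 in edgeR and 3043 in DESeq2). None of the 9 had an unadjusted p under 0.05. Of all genes, 10.9% had a higher and 11.5% a lower response in LysMcre-labelled libraries. The interaction, LysMcre-labelled response minus floxed response, ran from -0.25 for Gbp9 to 0.43 for Irgm2, with a median of 0.19 beside -0.01 over all genes. For Irgm2 the interval was -0.02 to 0.87 (adjusted p = 0.175), and without floxed untreated replicate 2 the interaction was 0.61 and passed (adjusted p = 0.0218, within 0.0218 to 0.396 over the alternatives). For Gbp2 the interval was -0.50 to 0.59 and for Gbp3 -0.55 to 0.55. With libraries scaled to the same total the median of all genes was -0.18 and that of the 9 genes 0.02, and 23% of all calls were higher, against 48.6% with the deposited scaling.

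The libraries of a group did not spread independently over these genes. Floxed untreated replicate 3 was above its group mean in 9 of 9 genes, by a median of 0.42 on the log2 scale, and floxed untreated replicate 2 was above it in 1 of 9, with a median of -0.35. The type I interferon-stimulated genes moved with them, at a median of 0.60 (24 of 24 genes above the group mean) in replicate 3 and -0.62 (0 of 24) in replicate 2. The median deviation over all genes was 0 in replicate 3 and -0.01 in replicate 2. The 17 other interferon-gamma target genes deviated the same way by smaller medians, 0.09 in replicate 3 (16 of 17 above the group mean) and -0.06 in replicate 2 (2 of 17). The 10 other genes of the GTPase families deviated by a median of 0.19 in replicate 3 (8 of 10 above) and -0.23 in replicate 2 (2 of 10).

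Smaller shifts of the same kind appeared in other groups. LysMcre-labelled untreated replicate 1 and floxed G-CSF replicate 1 were above their group means in 9 of 9 genes, by medians of 0.08 and 0.13, and floxed G-CSF replicate 2 was above in 0 of 9, with a median of -0.17. In LysMcre-labelled libraries given G-CSF the medians were 0.08, -0.03 and -0.07. The genes therefore do not count as separate observations of a group difference, and what set these libraries apart was not tested.

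**Figure D4:**
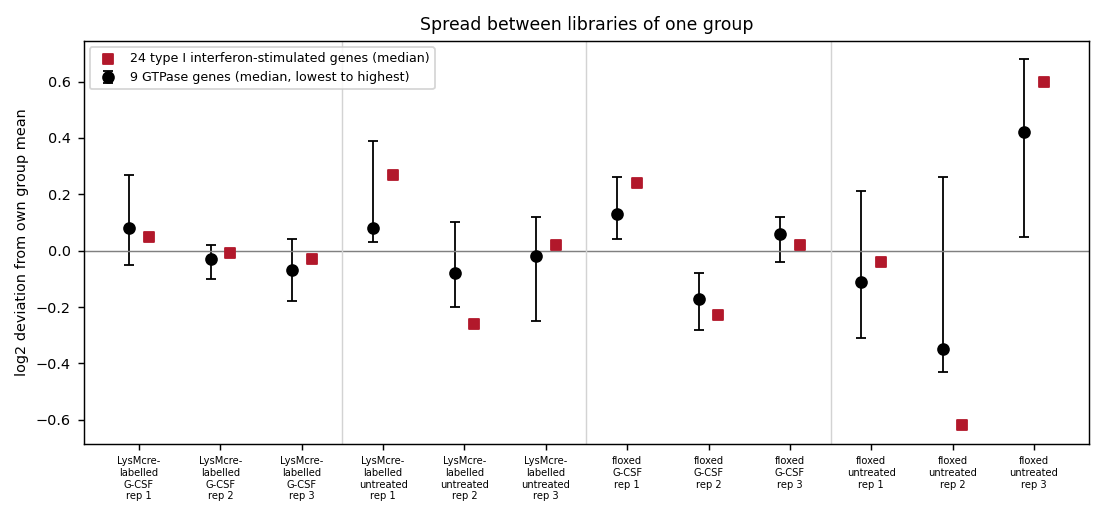
Deviation of each library from its own group mean on the log2 scale (y axis). Black points are the median of the 9 GTPase genes with bars from the lowest to the highest gene, and red squares are the median of 24 type I interferon-stimulated genes. Floxed untreated replicate 3 stands at 0.42 and 0.60, and replicate 2 at -0.35 and -0.62.

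Irgm1 followed the median profile of the 9 genes most closely, with a root mean square difference of 0.191 on the log2 scale over 12 libraries, and Gbp2 (0.832) and Gbp9 (0.997) least. Among 9666 other genes with a mean of at least 50, the profiles most like that median were those of Stat2 (0.15), Slfn3 (0.174), Treml2 (0.201), Sqle (0.209) and Sdcbp (0.21). Stat2, a transcription factor of type I interferon signalling, had 4284, 4366 and 4037 normalized counts with G-CSF against 1393.5, 1239.5 and 1461 untreated in LysMcre-labelled libraries. In floxed libraries Stat2 had 3791, 3094 and 3483 with G-CSF, against 1384.5, 1312 and 1805 untreated. Its level was higher in every library with G-CSF than in every untreated one, and floxed untreated replicate 3 was the highest untreated library. Stat2 was picked for a profile close to that median over these same 12 libraries, so this pattern follows from the choice. It is therefore no independent support. Slfn3, Treml2, Sqle and Sdcbp, at 0.174 to 0.21, were picked in the same way and are not detailed here. Whether a like profile reflects shared control was not tested.

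Other genes of the same families did not move as a body. Of 18 such genes 10 had a row. With G-CSF 3 rose and 4 fell in LysMcre-labelled libraries (median 0.28), and 2 rose and 3 fell in floxed libraries (median 0.15). Over all genes 31.1% rose and 31.6% fell in LysMcre-labelled libraries, and 24.1% rose and 24.6% fell in floxed libraries. The counts of the lists below stand beside the same shares. Gvin1, a very large interferon-inducible GTPase, had 129, 113 and 74.1 normalized counts with G-CSF against 71.5, 57.6 and 61.3 untreated in LysMcre-labelled libraries, and rose by 0.69 there and by 0.90 in floxed libraries (adjusted p = 0.00846 and 0.00196). Gm12250, annotated as a processed pseudogene beside Igtp, rose by 1.14 in LysMcre-labelled and 0.98 in floxed libraries (adjusted p = 0.00525 and 0.0171), the second call being lost without floxed G-CSF replicate 3, floxed untreated replicate 1 or floxed untreated replicate 2 (adjusted p = 0.000747 to 0.0824 over the alternatives). The predicted IRG gene 9930111J21Rik1 fell with G-CSF, to 118, 120.3 and 118 in LysMcre-labelled libraries, against 364, 367 and 385 untreated (-1.64, adjusted p = 8.36e-10), and to 251, 190.0 and 208 in floxed libraries, against 314, 331 and 324 untreated (-0.58, adjusted p = 0.00014). Gbp4 and Gbp8, whose models overlap Gbp9, were low, at 10.5 to 79.1 normalized counts in any library, and passed in no comparison. Irgc1, at 4.6 to 14.1 with G-CSF against 32.7 to 50.1 untreated, fell in both genotypes (-2.77 in LysMcre-labelled, -1.64 in floxed libraries, adjusted p = 2.33e-07 and 1e-04).

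Between the genotypes with G-CSF, 3 of these 10 genes were lower in LysMcre-labelled libraries and none higher, with a median of -0.23. Over all genes 18.9% were lower and 17.1% higher, which are also the shares for the lists below. The clearest was 9930111J21Rik2, with normalized counts of 551, 538 and 587 in LysMcre-labelled against 999, 911 and 1071.5 in floxed libraries (-0.83, adjusted p = 5.5e-07). 9930111J21Rik1 differed by -0.85 (adjusted p = 6.84e-06) and Irgc1 by -1.06 (adjusted p = 0.00582). The Irgc1 difference rests on low means, 5.62 in LysMcre-labelled against 12.5 in floxed libraries. Its call was lost in DESeq2 (-1.14, adjusted p = 0.069, within 0.00239 to 0.069 over the alternatives). Several of these genes have near copies, so how reads were shared among them is uncertain.

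Genes that carry interferon signals rose with G-CSF in part. Of 16 measured receptor and signalling genes, 10 rose and 2 fell in LysMcre-labelled libraries (median 0.77), and 9 rose and 3 fell in floxed libraries (median 0.35). Ifngr1, the ligand-binding chain of the interferon-gamma receptor, had 22969, 22471 and 23099 normalized counts with G-CSF against 2899.5, 2770.4 and 2503 untreated in LysMcre-labelled libraries (3.07, adjusted p = 5.31e-15). In floxed libraries Ifngr1 had 16580.3, 16359 and 15420.4 with G-CSF, against 2554, 2716 and 2372 untreated (2.66, adjusted p = 6.73e-14). Stat3, the main STAT of G-CSF signalling, rose by 1.96 in LysMcre-labelled and 1.52 in floxed libraries (adjusted p = 1.39e-13 and 7.29e-12). Jak2 rose by 1.62 in LysMcre-labelled libraries (adjusted p = 6.31e-13), and its floxed means were 3489 with G-CSF against 2191 untreated. Irf1, the interferon-gamma induced factor, chosen after its values were seen, rose by 0.74 in LysMcre-labelled and 0.31 in floxed libraries (adjusted p = 2.57e-07 and 0.00194).

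Between the genotypes with G-CSF, 8 of the 16 genes were higher and 1 lower in LysMcre-labelled libraries (median 0.23). Jak2, the kinase of the interferon-gamma and G-CSF receptors, was at 6706, 6883 and 7144 normalized counts in LysMcre-labelled libraries, against 3541, 3360.3 and 3565 in floxed ones (0.99, adjusted p = 2.89e-09). Ifnar1, a chain of the type I interferon receptor, was higher by 0.58 and Ifngr1 by 0.50 (adjusted p = 3.78e-06 and 1.52e-05). Of the 8 inhibitors, 5 rose and 1 fell with G-CSF in LysMcre-labelled libraries (median 0.63), and 3 rose and 1 fell in floxed libraries (median 0.20). Cish, a relative of Socs3 induced by STAT5, rose by 3.29 and 1.17 in LysMcre-labelled and floxed libraries (adjusted p = 7.13e-13 and 2.71e-07). Socs1, the main feedback inhibitor of interferon-gamma signalling, rose by 1.64 in LysMcre-labelled libraries (adjusted p = 2.64e-09), was 0.13 higher in floxed libraries without passing (adjusted p = 0.339), and differed in that response between the genotypes (interaction 1.51, adjusted p = 5.37e-06). With G-CSF, 5 inhibitors were higher and 1 lower in LysMcre-labelled than in floxed libraries (median 0.58). The lower one was Usp18, a type I interferon antagonist (-1.14, adjusted p = 0.0107), a call lost without floxed G-CSF replicate 1 (-0.95, adjusted p = 0.0507, within 0.000267 to 0.0507). Socs3, the floxed gene itself, is among the 5 higher ones (0.94, adjusted p = 1.06e-06). It is also among those that rose with G-CSF in both genotypes (7.00 in LysMcre-labelled and 6.44 in floxed libraries). Because the Socs3 row does not check the deletion, its place in these counts does not show an intact inhibitor.

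Targets that interferon-gamma is known for outside the 2 families moved in both directions, as did genes at large. Of 17 genes, 6 rose and 3 fell with G-CSF in LysMcre-labelled libraries (median 0.27), where 31.1% of all genes rose and 31.6% fell. In floxed libraries 7 rose and 2 fell (median 0.23), where 24.1% of all genes rose and 24.6% fell. Fcgr1, the high-affinity IgG receptor, rose by 2.62 and 1.29 in LysMcre-labelled and floxed libraries (adjusted p = 2.1e-06 and 0.00249), and Cd274, which encodes PD-L1, by 2.16 and 0.69 (adjusted p = 4.12e-09 and 0.00108). The antigen-processing genes Psmb9 and Tap2 fell by 1.14 and 0.98 in LysMcre-labelled libraries (adjusted p = 3.71e-09 and 3.55e-10). Their means were also lower with G-CSF in floxed libraries, at 1306 against 1839 untreated for Psmb9 and 3292 against 5010 for Tap2. Between the genotypes with G-CSF, 2 were higher and 4 lower in LysMcre-labelled libraries (median -0.14), 2 and 9 with libraries scaled to the same total. With the deposited scaling 17.1% of all genes were higher and 18.9% lower.

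Type I interferon-stimulated genes rose more often than not with G-CSF: of 24, 15 rose and 5 fell in LysMcre-labelled libraries (median 0.91), and 16 rose and 1 fell in floxed libraries (median 0.90). Oas2, which senses double-stranded RNA, had 7937, 8372 and 8732 normalized counts with G-CSF against 1079, 726 and 1044 untreated in LysMcre-labelled libraries (3.16, adjusted p = 1.53e-08). In floxed libraries Oas2 rose by 2.22 (adjusted p = 1.65e-06). The nucleic acid sensor gene Zbp1 rose by 3.03 and 2.27 in LysMcre-labelled and floxed libraries (adjusted p = 1.43e-06 and 4.85e-05). Cmpk2, a mitochondrial nucleotide kinase gene, fell to 240.4, 167.5 and 209 with G-CSF in LysMcre-labelled libraries, against 1734, 1298 and 1612 untreated (-2.91, adjusted p = 2.72e-09). The floxed means of Cmpk2 were 800 with G-CSF against 2097 untreated. Between the genotypes with G-CSF none of the 24 was higher and 9 were lower in LysMcre-labelled libraries (median -0.41). Over all genes 17.1% were higher and 18.9% lower. The largest differences were those of Cmpk2 at -1.94, Ifit3 at -1.88, Ifit2 at -1.48 and Rsad2 at -1.31. Fitted on those 2 groups alone, 1 of the 24 was higher and 13 were lower. Untreated, none of the 24 passed and all 24 were below 0 (median -0.52), which stands beside the high floxed untreated replicate 3 described above.

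**Figure D5:**
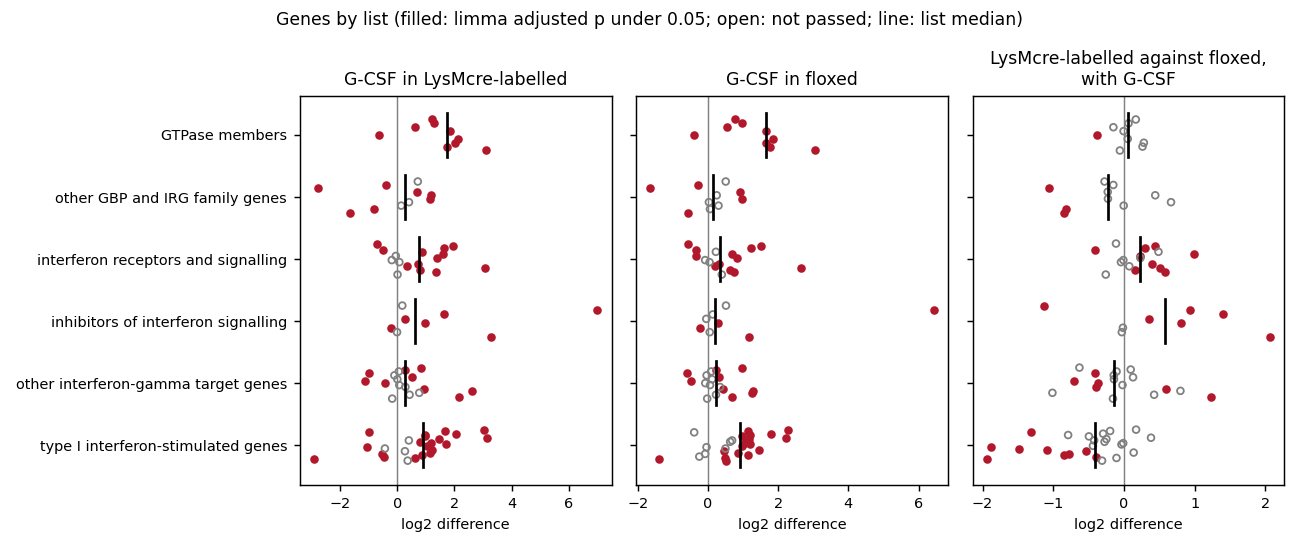
Log2 differences of single genes (x axis) in 6 lists, for G-CSF minus untreated in LysMcre-labelled and in floxed libraries and for LysMcre-labelled minus floxed with G-CSF. Filled points passed an adjusted p of 0.05 in limma, open points did not, and black lines are list medians. The 9 GTPase genes have medians of 1.75, 1.65 and 0.05, and the type I interferon-stimulated genes 0.91, 0.90 and -0.41.

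Partners through which the GTPases act were mixed. Of 22 genes for vacuole recognition, autophagy conjugation and inflammasomes, 10 rose and 8 fell with G-CSF in LysMcre-labelled libraries (median 0.11), and 8 rose and 4 fell in floxed libraries (median 0.08). The shares over all genes were 31.1% and 31.6% in LysMcre-labelled, and 24.1% and 24.6% in floxed libraries. Casp4, which encodes caspase-11, rose by 3.62 and 2.80 in LysMcre-labelled and floxed libraries (adjusted p = 1.42e-16 and 5.53e-15). Atg3, a conjugating enzyme of autophagy that mouse GBPs and IRGs need to reach vacuoles, rose by 1.54 and 1.47 (adjusted p = 1.21e-10 and 5e-10). Lgals8, a sensor of damaged vacuoles, rose by 2.19 and 1.17 (adjusted p = 1.53e-14 and 4.55e-11), and the DNA sensor gene Aim2 fell by 1.71 and 1.17 (adjusted p = 8.38e-09 and 1.23e-06), each in LysMcre-labelled and then floxed libraries. Between the genotypes with G-CSF 6 were higher and 7 lower in LysMcre-labelled libraries (median -0.01), led by Lgals8 at 0.90 (adjusted p = 4.39e-09). Here 17.1% of all genes were higher and 18.9% lower. Untreated, no gene of any of these lists passed between the genotypes in limma.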

How the data were processed

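The authors' deposited table holds normalized counts, a signal unit in which a gene's reads are divided by a size factor of the library. This follows from the values. Within a library they are integer multiples of a constant, which gave whole reads for 100.0% of values (tolerance 0.01 read), and median-of-ratios size factors computed from those reads match the constants to within 3.1e-11. Per the submitters' processing notes the genome build is mm10. The sources used here give no aligner, counter, annotation or strand setting. Gene positions and exon lengths come from GENCODE M21, and promoter sequences from RefSeq (GRCm38.p6).

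Depth was 19495754 to 26472118 recovered reads per library, 3 reads being worth 2.57 to 3.54 normalized counts. Groups followed the titles, except that the LysMcre libraries with G-CSF, whose titles name both G-CSF and untreated, were placed by their description. For LysMcre-labelled untreated replicate 2 the column name gives the number 3, while its title's number was kept.

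Of 13935 rows, 20 with a mean under 10 were left out. Values were taken as log2(value + 1), which understates changes of low genes. A single limma 3.58.1 fit (R 4.3.3, trended prior) covered the 4 groups. Tests are two-sided, p-values were adjusted by Benjamini-Hochberg over 13915 genes, the threshold is 0.05 and intervals are 95%. The design assumed values that are not whole reads. Count tests with edgeR 4.0.16 and DESeq2 1.42.0 on the recovered reads served as alternatives, beside other pseudocounts, filters, scalings, groups in the fit, a replicate block and libraries left out. The fit was tested on simulated data.

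All 9 measured members passed the filter. The members and the gene lists were chosen with earlier results of these data known. Named list genes are up to 4 per list and comparison with the largest difference among those past 0.05. Irf1, Gbp4 and Gbp8 fall outside that rule. Some list genes enter the list counts but are not reported by name here.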

Additional observations from a re-analysis of the deposited data

Results flagged for a closer look

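None of the 9 GTPase genes stood out by a difference in response between the genotypes. Genes below, of the lists described above and of the genotype check, did: their response to G-CSF in LysMcre-labelled libraries differed from that in floxed libraries (interaction in limma, adjusted p under 0.05). The value is the log2 response in LysMcre-labelled minus that in floxed libraries, so a positive one means a response that was higher in LysMcre-labelled libraries.

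Among receptors and signalling genes the values were 0.95 for Jak2 (adjusted p = 5.42e-07), 0.61 for Ifnar1 (0.000148), 0.58 for Irf9 (0.0227), 0.45 for Stat3 (0.000688) and 0.42 for Irf1 (0.00674). The inhibitors were at 2.12 for Cish (adjusted p = 2.5e-07), 1.51 for Socs1 (5.37e-06), 0.71 for Ptpn2 (6.85e-05) and 0.56 for Socs3 (0.00476). Targets of interferon-gamma were at 1.47 for Cd274 (adjusted p = 0.000122), 1.33 for Fcgr1 (0.0398), 0.51 for Gch1 (0.0193) and -0.64 for Psmb9 (0.000542). Of the type I interferon-stimulated genes, Cmpk2 was at -1.53 (adjusted p = 0.000777).

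Partner genes were at 1.02 for Lgals8 (adjusted p = 1.89e-07), 0.82 for Casp4 (1.68e-06) and 0.80 for Map1lc3a (0.000534). In the wider GTPase families the values were -1.13 for Irgc1 (adjusted p = 0.0447), -1.05 for 9930111J21Rik1 (6.07e-05) and -0.87 for 9930111J21Rik2 (2.61e-05). Lyz2, which carries the Cre, was at -1.14 (adjusted p = 3.78e-06). Over all genes 22.4% passed this test. The call was lost in 14 of 20 alternatives for Irgc1, 9 of 21 for Fcgr1, 5 of 21 for Irf9 and 3 of 21 for Gch1.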

How the results depend on the processing

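Of 765 repeats of the members' log2 differences under the alternatives tried, 751 kept their side of the threshold, 13 no longer passed and 1 newly passed. The sign turned in 23 repeats, to 2 decimals and leaving out the Gbp3 interaction of 0, and 0 of these passed as reported or in the repeat. Members called between the genotypes with G-CSF were 1 as reported, 0 with quantile normalization, 0 in edgeR and 0 to 1 with 1 library left out (Gbp9). The interaction gave 0, and 0 to 1 with 1 library left out (Irgm2). G-CSF gave 9 in floxed libraries, 8 to 9 with 1 library left out, and 9 in LysMcre-labelled libraries, 8 with equal totals (Igtp). Untreated, the count stayed 0 in all alternatives. With equal totals the share of calls that were higher was 31.2% against 49.6% for G-CSF in LysMcre-labelled and 38.5% against 49.5% in floxed libraries, and the median of all genes was -0.26 and -0.09. List counts stayed within 1.5 times in 501 of 510 repeats; among the exceptions, the interaction called 7 receptor and signalling genes, and 4 with quantile normalization, and 1 type I gene, and 2 to 5 under edgeR, the block and libraries left out. The cause of these changes was not tested. Same-numbered samples correlated at -0.18 to 0.32 over 18 pairs, 4 of them over 0.1, and 13 of 36 correlated best with their own number. Between G-CSF and untreated libraries of 1 genotype, numbers 1, 2 and 3 correlated at 0.21, -0.03 and 0.03 in LysMcre-labelled libraries. In floxed libraries they correlated at 0.32, 0.2 and 0.06. The counts pool pairs within and between genotypes, so they do not settle whether the numbers pair libraries of 1 genotype. With the replicate block the member counts were 1, 0, 9, 9 and 0, the same as without it. Where a library was left out of a group, the remaining ones were assumed to vary like the other groups. Depth limits Irgc1, Gbp8, Gbp4 and Tgtp2, which had few reads.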
